A study of Mus musculus with 4 samples.

Results

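In aortic smooth muscle sorted for green fluorescence from mice without the TGF-beta receptors, 110 cells still carried transcripts of tdTomato, the red reporter that should be lost on recombination. The 110 cells were chosen by their measured reporter counts, 3 or more tdTomato UMIs (unique transcript tags) and at least 1 eGFP UMI, among cells with at least 1000 UMIs, 500 detected genes and at most 10% mitochondrial UMIs. KO 1 held 72 of them among 4252 kept cells, and KO 2 held 38 among 3522. They were 110 of 7774 kept KO cells and of 13468 kept cells in the series. Most of them had the low level of collagen and elastic fibre transcripts of the other KO cells, and 13 were above the median WT cell. In 8 of the 110, marker transcripts of endothelial cells, fibroblasts or macrophages outnumbered those of smooth muscle.

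The study set out to compare single smooth muscle cells of control and receptor-deleted mice, with 2 libraries per genotype. WT was GFPiSMC, mice with Myh11-CreERT2 and the mT/mG reporter. KO was Tgfbr1/2iSMCKO, mice that carried both of these and floxed alleles of Tgfbr1 and Tgfbr2. All mice were C57BL/6J, received tamoxifen by intraperitoneal injection for 5 days, at 1 mg per day from 4 weeks of age or 2 mg per day from 11 weeks, and were studied at 12 weeks of age. The labels do not say which course a library had. Cells came from the ascending aorta and aortic arch, were freed by digestion in the cold, gated as single, viable and GFP-positive, and sequenced with 10x 3′ chemistry v3.1. The labels speak of individual aortic segments without tying libraries to mice, so differences between libraries may be technical. P-values of KO against WT measure the spread between libraries. Those within KO, by tdTomato, rest on how the difference varied between the 2 KO libraries and on spread shared across genes. That fit had 1 residual degree of freedom, so the shared spread weighs heavily. A small p therefore does not show changes of like size in both libraries.

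The mT/mG reporter sits in the Rosa26 locus and makes membrane-bound tdTomato until Cre removes the tdTomato cassette, after which the same promoter makes membrane-bound eGFP. In these mice Cre is fused to a modified estrogen receptor, expressed from the promoter of the smooth muscle myosin gene Myh11, and enters the nucleus with tamoxifen. The same Cre cuts the floxed receptor genes, but each locus recombines on its own, so the reporter reads recombination at Rosa26 and not at Tgfbr1 or Tgfbr2. TGFBR1 and TGFBR2 are the kinases through which TGF-beta acts on SMAD proteins, and in aortic smooth muscle the pathway is known for driving elastin, collagens and contractile genes.

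The kept cells of the 4 libraries held between 35255748 and 59203071 UMIs, with medians from 13898 to 15383 per cell. Cells with 3 or more tdTomato UMIs had a median of 15161 UMIs in KO 1 and 15914 in KO 2, against 13891 and 14399 in KO cells with 0 tdTomato UMIs. Their median mitochondrial share was 3.51% and 3.84%, against 3.77% and 3.83%. Between 3 and 6 cell barcodes were shared by any pair of libraries, and none of them belonged to the 110 cells. The class sums held 1079261 UMIs for the 72 cells and 642332 for the 38, against 56902302 and 49230684 for the cells with 0.

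tdTomato-positive cells were 1.69% of the kept KO 1 cells (exact binomial 95% interval 1.33 to 2.13%) and 1.08% of KO 2 (0.765 to 1.48%). These intervals, and those below, cover counting error only. The class had no member among 2429 kept cells of WT 1, which allows a share of up to 0.124%, and 1 among 3265 of WT 2. Any tdTomato UMI at all was seen in 0.0412% of WT 1 and 0.0613% of WT 2 cells, the background of the controls, against 2.82% and 1.70% in KO 1 and KO 2. The WT 2 cell held 6 tdTomato and 58 eGFP UMIs. With so few WT cells, the tdTomato contrast could not be run within WT.

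The reporter values describe the selection and carry no test. The 110 cells had a median of 6 tdTomato UMIs in KO 1 and 7 in KO 2, with highest counts of 27 and 21. Their median eGFP count was 59.5 in both KO 1 and KO 2, against 107 in both for cells with 0 tdTomato UMIs and 80 and 86 in WT 1 and WT 2. The eGFP range was wide, from 1 to 214 UMIs in KO 1 and from 1 to 209 in KO 2. At the edge of the rule, the 11 KO 1 cells with exactly 3 tdTomato UMIs had a median of 46 eGFP UMIs, and the 15 cells with exactly 2 had 55. In KO 2 the 5 cells with 3 UMIs had a median of 55 eGFP UMIs and the 4 cells with 2 had 112.

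**Figure D1:**
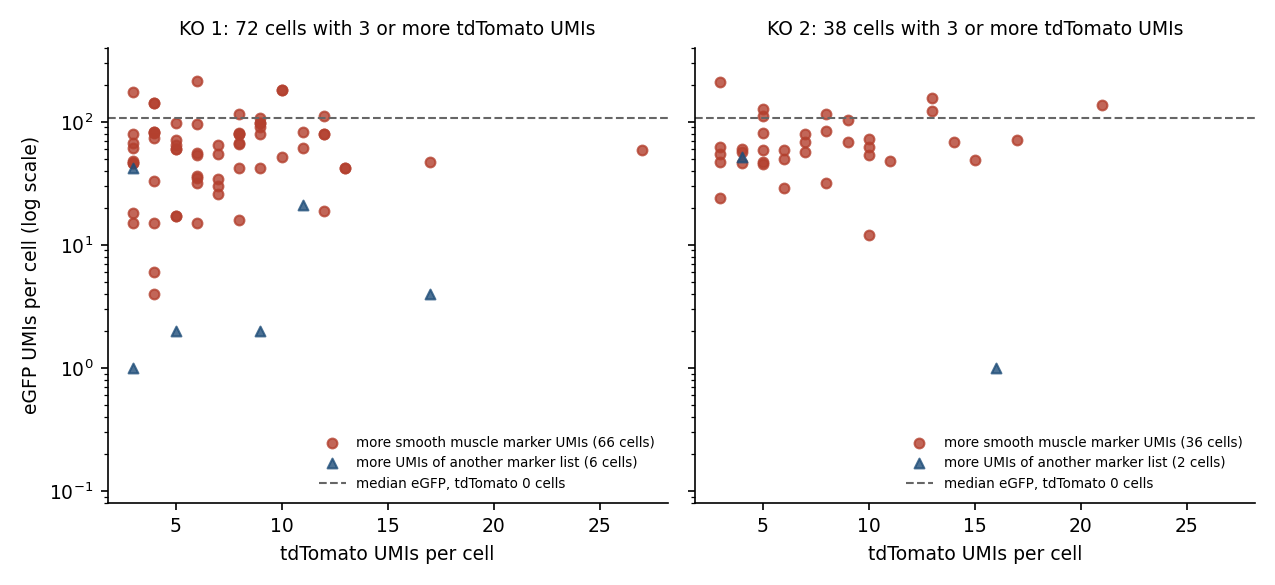
eGFP UMIs (log scale) against tdTomato UMIs of each of the 110 cells, by library. Circles are cells with more smooth muscle marker UMIs and triangles the 8 cells with more UMIs of another marker list, 5 of which carried 4 eGFP UMIs or fewer; the dashed line is the median of 107 eGFP UMIs in cells with 0 tdTomato UMIs.

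The label of the sort, smooth muscle, fitted most of the 110 cells. The 10 smooth muscle markers, which encode parts of the contractile apparatus, summed to a median of 59961 CPM (UMIs scaled to a total of 1e6) per cell in KO 1 and 52547 in KO 2. The cells with 0 tdTomato UMIs had 59735 and 56606. In 6 KO 1 cells and 2 KO 2 cells another marker list had more UMIs than the smooth muscle list, or 8.33% (3.12 to 17.3%) and 5.26% (0.644 to 17.7%). The share was 0.146% and 0.145% in cells with 0 tdTomato UMIs, 6 and 5 cells.

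By the list with most UMIs, the 8 cells were of 3 kinds. In KO 1, 4 cells led with endothelial markers, with 51, 68, 95 and 102 UMIs of that list against 1, 7, 10 and 13 of the smooth muscle list. These 4 cells held 2, 1, 2 and 4 eGFP UMIs. Another KO 1 cell led with fibroblast markers, 69 UMIs against 42, and held 21 eGFP UMIs. The last led with macrophage markers, 581 against 20, and held 42 eGFP UMIs. Both KO 2 cells led with fibroblast markers, 575 against 67 and 211 against 172, with 1 and 52 eGFP UMIs. The macrophage cell supplied every Csf1r, C1qa and Ptprc UMI among the 110 cells, 23, 157 and 4. A KO 2 cell outside the 8 held 88 endothelial and 573 smooth muscle marker UMIs. No caller-based removal of doublets was applied, and 1 and 3 of the 110 cells were among the highest Scrublet (doublet) scores of their library.

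**Figure D2:**
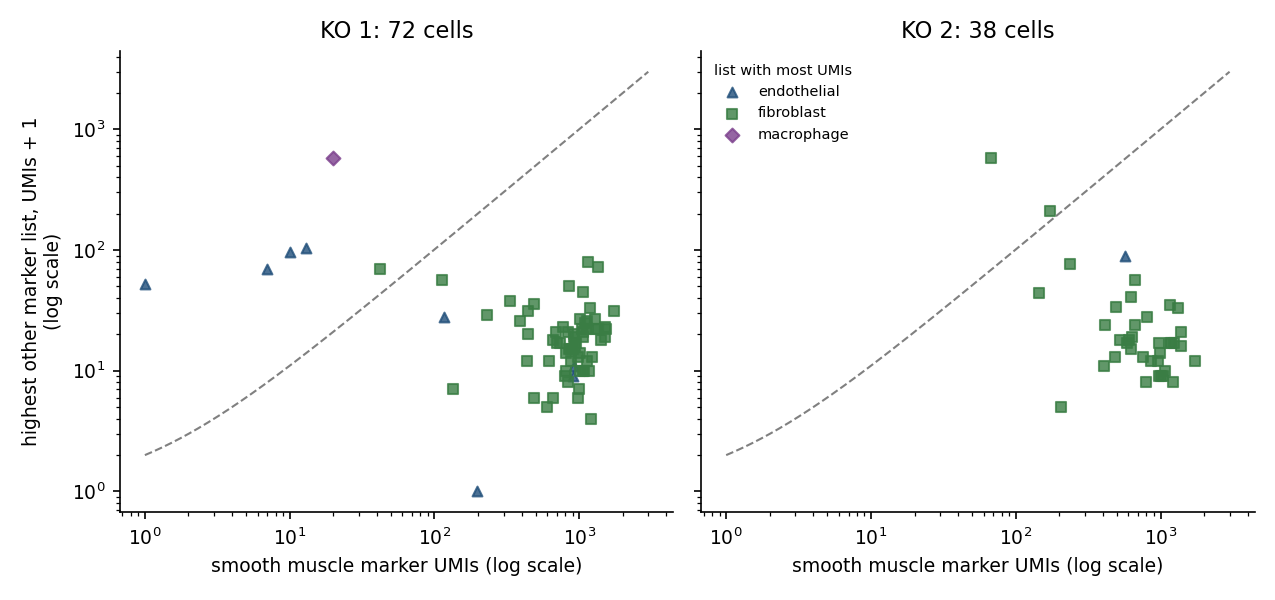
For each of the 110 cells, smooth muscle marker UMIs against the highest of the endothelial, fibroblast and macrophage marker UMIs plus 1 (both log scales), with symbols for the list that was highest. The dashed line marks equal counts: 6 KO 1 cells and 2 KO 2 cells lie above it, and the rest lie below.

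Collagen and elastic fibre transcripts, 35 genes summed per cell after thinning each cell to 5000 UMIs, placed most tdTomato-positive cells with the other KO cells. The median was 4400 CPM in KO 1 and 4700 in KO 2, against 4000 and 3800 in cells with 0 tdTomato UMIs and 10000 and 10200 in WT 1 and WT 2. Both KO libraries were thus higher in the tdTomato-positive class, by 400 and 900 CPM, with a mean of 650 ± 354 (SD, n = 2 libraries). A pair of libraries cannot give a p below 0.5 in an exact paired permutation test. The class stood at 45.0% of the WT median, and the exact two-sided permutation test against WT gave p = 0.33, the smallest that 2 against 2 allows.

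A minority of the class reached WT levels. Of the cells deep enough to thin, 8 of 71 in KO 1 (11.3%, 4.99 to 21.0%) and 5 of 38 in KO 2 (13.2%, 4.41 to 28.1%) exceeded the median WT cell. Among cells with 0 tdTomato UMIs, 30 of 3982 (0.753%, 0.509 to 1.07%) and 31 of 3289 (0.943%, 0.641 to 1.34%) did. These intervals treat cells as independent draws and do not test the classes against each other. Of the 13 cells, 7 were among the 8 with more markers of another cell type, and 6 had more smooth muscle marker UMIs. By tdTomato count, cells above the median WT cell in KO 1 were 1 of 11 with 3 UMIs, 3 of 17 with 4 to 5, 1 of 28 with 6 to 9 and 3 of 15 with 10 or more. In KO 2 they were 0 of 5, 3 of 10, 1 of 11 and 1 of 12 in the same order.

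**Figure D3:**
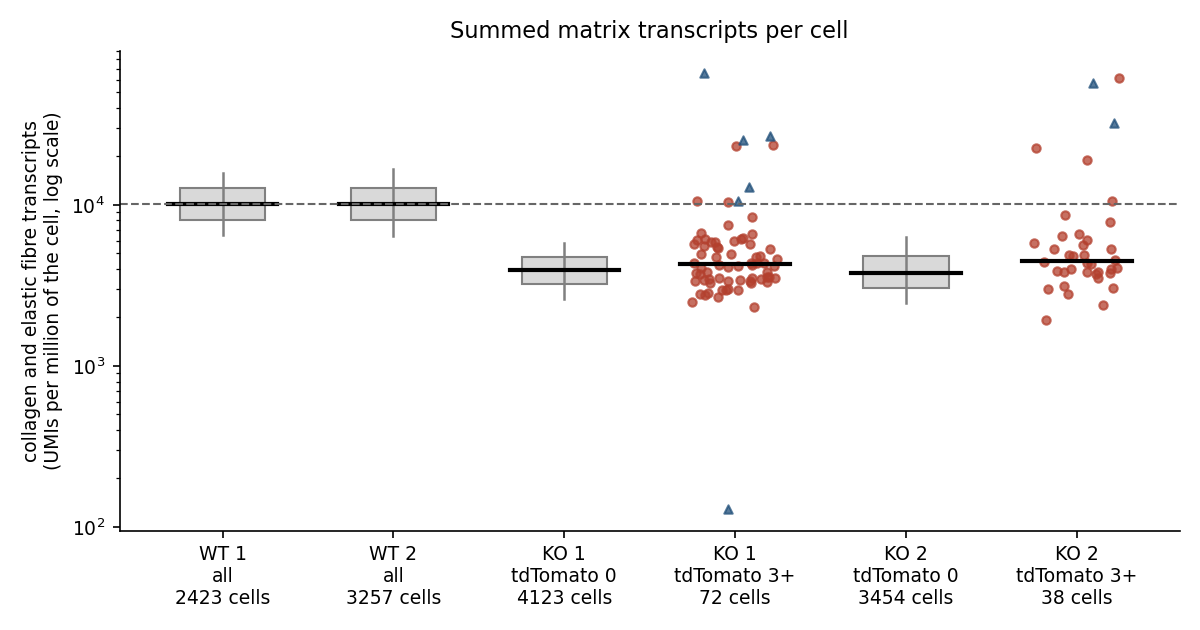
Collagen and elastic fibre transcripts per cell without thinning, as CPM on a log scale. Boxes show quartiles, thin lines the 10th to 90th percentile and black lines medians; points are the 110 tdTomato-positive KO cells, triangles those with more markers of another cell type, and the dashed line is the mean WT median. Most points lie among the other KO cells and a scatter lies above the WT line.

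The 6 smooth muscle-marked cells above the WT median are described singly, since their matrix level chose them. The name means only that the smooth muscle list had the most UMIs. That list had 117, 1158 and 484 UMIs in the KO 1 cells, against 37, 78 and 35 of the highest other list. In the KO 2 cells it had 858, 662 and 144, against 17, 229 and 45. The highest other list was fibroblast or pericyte in each. Elastin (Eln), the core protein of elastic fibres, had 1, 290 and 119 UMIs in the 3 KO 1 cells and 108, 210 and 402 in the 3 KO 2 cells. Pmepa1, a TGF-beta-induced inhibitor of SMAD signalling, had 7, 90 and 32 UMIs in the KO 1 cells and 34, 103 and 49 in the KO 2 cells. Myh11 had 13, 121 and 85 UMIs, and 76, 154 and 3. Thus 5 of the 6 held at least 108 Eln UMIs, and 4 of those 5 also held 76 or more Myh11 UMIs. Over all 13 cells the median was 119 Eln UMIs, against 2 in the other 97, and the median of Myh11 was 5 against 92.

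Summed over cells and tested against the 0 class of the same library, 257 of 13448 genes rose (1.91%) and 109 fell (0.811%) in the tdTomato-positive class. The test was edgeR's quasi-likelihood test with library as a block. Leaving out the 8 cells with other markers, and the 11 such cells of the 0 class, left 88 higher (0.659%) and 38 lower (0.285%). All 88 were among the 257. The shares over all genes tested, 1.91% and 0.811%, are the background for each list count below of the class against the 0 class. Calls leaned further to rises without scaling beyond library totals, 313 higher and 62 lower (83.5% higher, against 70.2%), and with DESeq2, 131 and 6 (95.6%). With KO 2 alone the test called 112 higher and 21 lower, and with KO 1 alone 174 and 2.

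The rises and falls differed in how far the UMIs of the class were concentrated in few cells. For genes past the threshold that averaged 20 CPM or more, the 5 highest cells supplied a median of 52.6% of the UMIs of the 135 higher genes in KO 1 and 70.0% in KO 2. For the 96 lower genes the medians were 22.6% and 36.0%, and for all 5788 tested genes of that level 28.3% and 42.1%. An even spread would give 6.94% and 13.2%. For a lower gene the share shows where its remaining UMIs lay, and not which cells lacked it. The standard errors below come from 4 sums and do not contain the spread between cells within a sum. They can also be smaller than the gap between the changes of the 2 libraries, as for Eln and Col3a1.

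**Figure D4:**
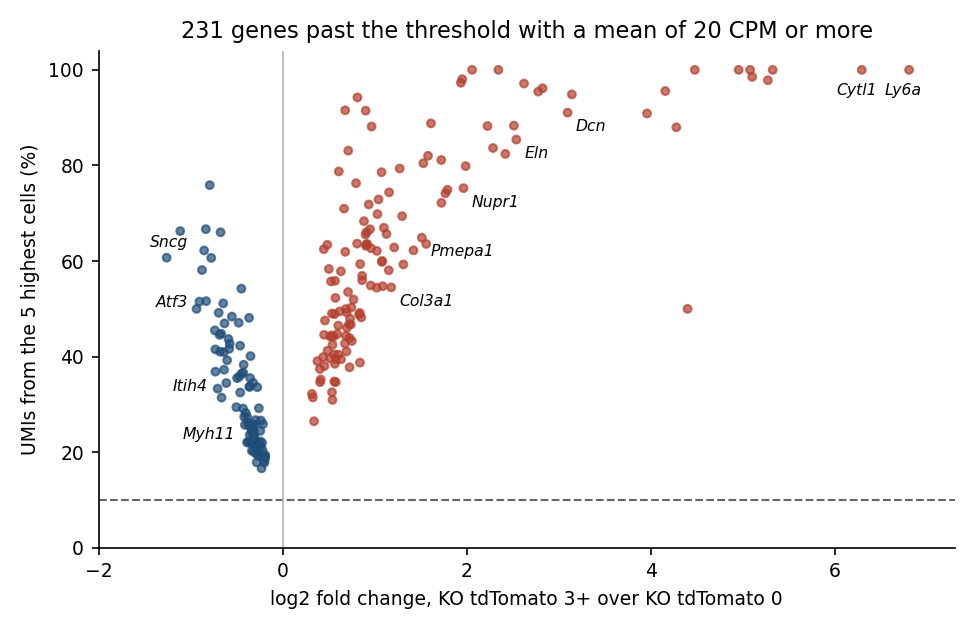
Share of UMIs from the 5 highest cells (%, mean of both KO libraries) against the log2 fold change of the tdTomato-positive class over the 0 class, for the 231 called genes with a mean of 20 CPM or more. Red points rose and blue points fell; the dashed line is the mean share under an even spread. The steepest rises, such as Cytl1 and Ly6a, came wholly from 5 cells or fewer.

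Elastic fibre genes had 13 of 19 tested members higher and none lower, with a median log2 change of 0.78 against -0.03 over all genes tested. Without the 8 cells, 8 of 19 were higher. Eln (chr5:134702593-134747323, GRCm38) had 1320 CPM in KO 1 and 1744 in KO 2, against 324 and 219 in the 0 class and 2842 and 2877 in WT 1 and WT 2. The classes did not overlap, and the log2 change was 2.54 (SE 0.07, adjusted p = 2.76e-241). Yet 5 cells supplied 78.8% of the Eln UMIs of the class in KO 1 and 92.1% in KO 2. After thinning, Eln was detected in 63.4% of the class (51.1 to 74.5%) and 64.1% of the 0 class in KO 1, and in 19 of 38 cells (33.4 to 66.6%) and 53.5% in KO 2. Without the 8 cells the log2 change of Eln was 1.83 (adjusted p = 1.28e-93).

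Other elastic fibre genes moved in the same manner. Fbln5, a fibulin needed to assemble elastic fibres, had 260 and 352 CPM, against 89.0 and 98.2 in the 0 class and 511 and 548 in WT. Its log2 change was 1.72 (SE 0.10, adjusted p = 9.49e-58), with 67.7% and 76.7% of its UMIs in 5 cells. Mfap4, a microfibril-associated glycoprotein, had 99.1 and 301 CPM, against 55.5 and 52.7, and 1006 and 1103 in WT. Its log2 change of 1.77 (adjusted p = 7.48e-43) had an adjusted p of 0.918 in DESeq2. Lox, which crosslinks elastin and collagen, had 84.0 and 141 CPM against 39.0 and 44.1, a log2 change of 1.42 (adjusted p = 2.44e-20). Fbln2 had 69.9 and 96.8 CPM against 6.08 and 3.48, above WT levels of 7.98 and 9.09, and 91.1% and 100% of its UMIs lay in 5 cells.

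Of the collagens and their associated genes, 7 of 12 tested members were higher and none lower (median log2 0.50), and 5 without the 8 cells. Col3a1, a main fibrillar collagen of the vessel wall, had 641 CPM in KO 1 and 1379 in KO 2, against 444 and 412 in the 0 class. Its log2 change was 1.18 (SE 0.08, adjusted p = 3.52e-50). WT 1 and WT 2 lay at 1335 and 1354 CPM, so KO 2 was above both and KO 1 below both. A single KO 2 cell held 263 of the 940 Col3a1 UMIs of its library's class. Col1a1 had 392 and 782 CPM against 302 and 260, and Col5a2 had 196 and 244 against 108 and 102. Proteoglycan and matricellular genes had 11 of 20 higher and 3 lower, and 6 of 19 higher and 1 lower without the 8 cells. Dcn and Lum, small leucine-rich proteoglycans that also mark fibroblasts, had log2 changes of 3.09 and 2.62. All Dcn UMIs of the KO 2 class, 309 of them, lay in 5 cells or fewer.

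**Figure D5:**
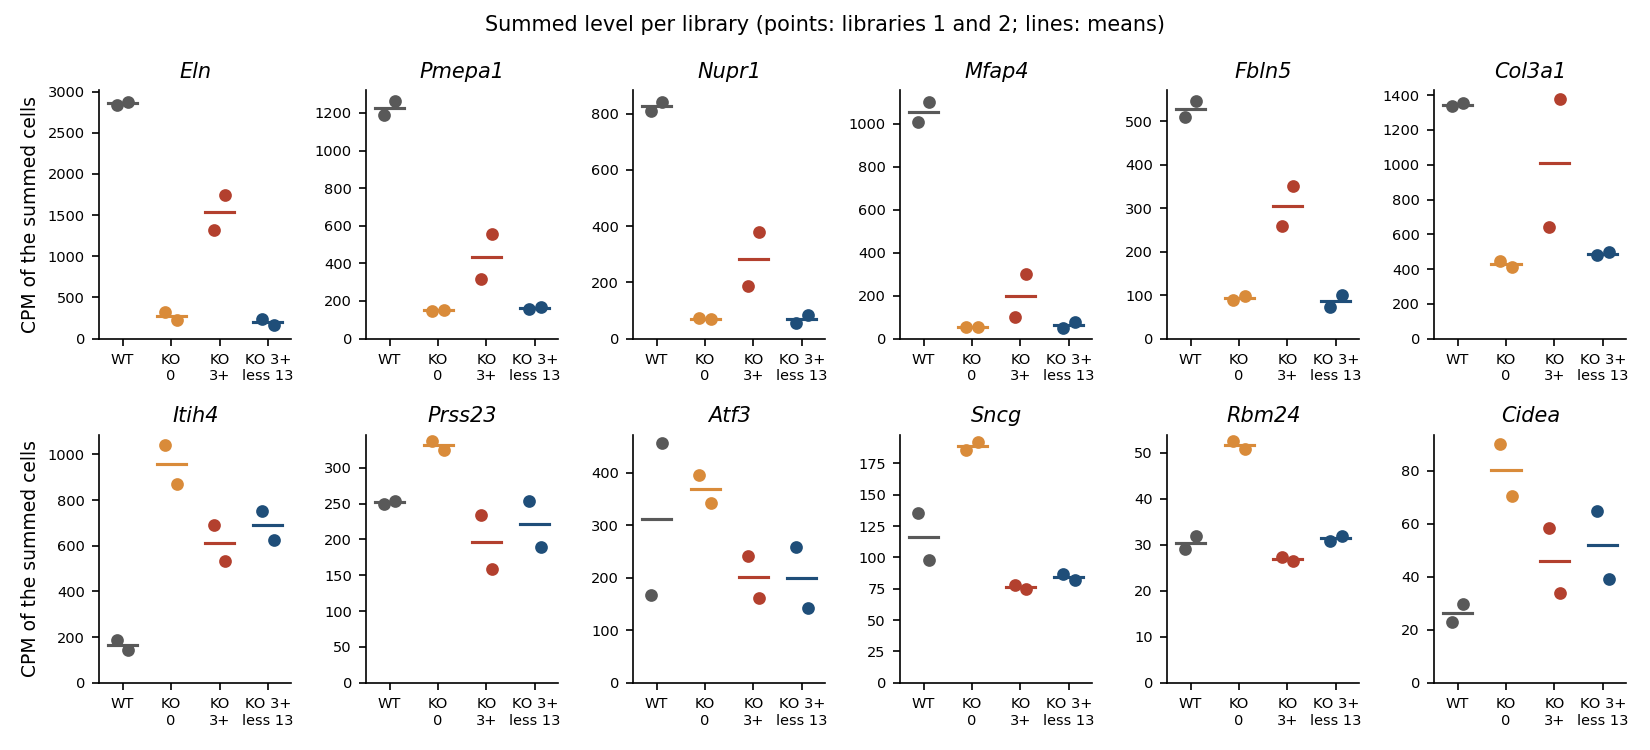
Summed level (CPM, each axis from 0) of 12 genes in WT, KO cells with 0 tdTomato UMIs, KO cells with 3 or more, and the latter without the 13 cells above the median WT cell; points are libraries and lines are means. Without the 13 cells, chosen on matrix transcripts that include Eln, Mfap4, Fbln5 and Col3a1, the 6 genes of the upper row lie near the 0 class, as for Pmepa1 at 157 and 167 CPM, and those of the lower row lie below it.

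The 13 cells carried 84.4% of the Eln UMIs of the class in KO 1 and 92.1% in KO 2, with 11.1% and 17.3% of all its UMIs. Without them Eln was at 232 and 167 CPM, against 289 and 201 in the 0 class treated alike. This follows in part from how the 13 were chosen. Pmepa1 and Nupr1 did not enter that choice. Pmepa1 was at 157 and 167 CPM without the 13 cells, against 143 and 146, above the 0 class in both libraries. Nupr1 was at 56.7 and 83.4 CPM, against 66.4 and 63.7, below it in KO 1 and above it in KO 2.

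TGF-beta target genes had 8 of 20 tested members higher and 3 lower in the class (median log2 0.23), and 5 of 19 higher and 1 lower without the 8 cells. Their summed level was nevertheless lower in the class, 16088 CPM in KO 1 and 14471 in KO 2, against 16899 and 15863 in the 0 class. The median cell had 15801 and 15180 CPM of them, against 16413 and 15321. Pmepa1 had 314 CPM in KO 1 and 555 in KO 2, against 148 and 152 in the 0 class and 1192 and 1263 in WT. Its log2 change was 1.51 (SE 0.09, adjusted p = 2.53e-54), past the threshold under all 18 alternatives tried, with 54.6% and 75.1% of its UMIs in 5 cells. Ltbp2, which binds elastic microfibrils, had 66.4 and 170 CPM against 19.6 and 26.6 (log2 2.28, adjusted p = 2.27e-49). Ccn2, a matricellular protein, had 444 and 973 CPM against 363 and 572, far below WT levels of 2575 and 2962 (log2 0.57, adjusted p = 1.59e-10). Nox4, an NADPH oxidase, had 37.2 and 95.4 CPM against 35.9 and 41.3, so the KO 1 values nearly coincided. The 3 lower members were Tagln, Postn and Smad6.

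The receptors did not pass the test. Tgfbr1 had 60.2 and 88.0 CPM in the class, 76.4 and 78.8 in the 0 class and 82.9 and 84.9 in WT, a log2 change of -0.08 (SE 0.15, adjusted p = 0.953). Tgfbr2 had 43.3 and 57.2 CPM, 48.5 and 48.9, and 53.1 and 46.5, a log2 change of 0.05 (SE 0.17, adjusted p = 0.988). Reads of this chemistry come from the 3′ end of a transcript, and the labels do not say which exons are floxed, so these levels do not check the deletion in any class. Of 18 ligands, receptors and SMADs, 4 were higher and none lower (median log2 0.05): Tgfb1 itself, with 48.7 and 30.8 CPM against 21.97 and 17.1 (log2 1.08, adjusted p = 2.81e-05), and the latent TGF-beta binding proteins Ltbp1, Ltbp3 and Ltbp4. Without the 8 cells 3 of 18 were higher (median -0.03), and none was without cells with defining markers of another type.

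Among the genes that the whole series shows steepest in KO against WT, most losses were called higher in the class and most gains were not called. The list was chosen on these libraries, so its direction is no independent evidence. Of 12 steep losses, 8 were higher in the class than in the 0 class and none lower (1.91% of all genes tested were higher). All of these but Pcsk5 also passed without the 8 cells. Without cells with defining markers of another type 6 were higher, and 3 after thinning and removal of cells of other markers. The 5 highest cells supplied 67.6% of the UMIs of these losses in KO 1 and 82.0% in KO 2. The median cell of the class had 673 and 745 CPM of them, against 624 and 546 in the 0 class. Ccn5 had 12.4 and 74.8 CPM against 5.09 and 5.51, and Mylk4, a myosin light chain kinase family member, had 89.4 and 79.2 against 63.0 and 61.3. Col15a1, a basement membrane collagen, did not pass, with 8.85 and 8.80 CPM against 5.06 and 4.26 and a WT level of 288 and 308. AA465934 had 0 UMIs in the 72 and 38 cells, which puts it at least 24.4-fold below WT, taking 3 UMIs in each sum as the floor. Of 12 steep gains, none was higher and 2 were lower, Itih4 and Cidea (0.811% of all genes tested were lower). The other 10 were not called, and the median log2 of the gains was -0.06, against -0.03 over all genes tested. Clec2d, a C-type lectin, had 43.3 and 42.5 CPM, against 41.0 and 35.8 in the 0 class and 12.2 and 8.86 in WT (log2 0.18, SE 0.18).

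Falls were smaller, and as medians over genes the UMIs of the lower genes were less concentrated in few cells. Itih4 (chr14:30886476-30902353, GRCm38), an inter-alpha-trypsin inhibitor heavy chain, had 691 CPM in KO 1 and 531 in KO 2, against 1041 and 870 in the 0 class and 188 and 144 in WT. The classes did not overlap, and the log2 change was -0.61 (SE 0.07, adjusted p = 8.75e-14). After thinning it was detected in 73.2% of the class (61.4 to 83.1%) against 88.0% in KO 1, and in 71.1% (54.1 to 84.6%) against 82.4% in KO 2. No cell type that lacks Itih4 was numerous enough to set a background share from free RNA, which was not tested. Cidea, a lipid droplet protein, had 58.4 and 33.7 CPM against 90.2 and 70.4 (log2 -0.74, adjusted p = 0.000503).

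Sncg, which encodes gamma-synuclein, fell to 77.9 and 74.8 CPM against 185 and 192 in the 0 class and 135 and 97.8 in WT. Its log2 change was -1.26 (SE 0.13, adjusted p = 1.67e-19). These Sncg levels rest on 88 and 51 UMIs, 48.9% and 72.5% of them in 5 cells. Prss23, a serine protease named after its values were seen, had 234 and 158 CPM against 337 and 325 (log2 -0.71, adjusted p = 3.84e-10) and was detected in 53.5% against 67.1% of thinned KO 1 cells and 42.1% against 63.8% in KO 2. Rbm24, an RNA-binding protein of muscle splicing, had 27.4 and 26.4 CPM against 52.6 and 50.9, close to the WT level of 29.1 and 31.8 (log2 -0.91, adjusted p = 0.000534). Gt(ROSA)26Sor (chr6:113067428-113077333, GRCm38), the noncoding gene of the locus that holds the reporter, had 23.0 and 13.2 CPM, 26 and 9 UMIs, against 35.9 and 36.4 (log2 -0.88, adjusted p = 0.00802). Without the 8 cells its adjusted p was 0.114. The reporter lies in this locus, and how its reads and those of the gene were told apart is not given in the sources used here.

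Of 24 immediate early and stress genes, 6 were lower and 2 higher (median log2 -0.24), and 3 and 1 without the 8 cells. Atf3, a stress-induced transcription factor, had 242 and 161 CPM against 396 and 343 (log2 -0.83, SE 0.10, adjusted p = 1.12e-14), but WT 1 and WT 2 lay at 167 and 457. Hspa1b, an inducible heat shock protein, had 114 and 172 CPM against 164 and 328 (log2 -0.70, adjusted p = 5.7e-08). Without the library block, Itih4, Prss23 and Atf3 had adjusted p of 0.118, 0.106 and 0.0729. With KO 1 alone the log2 changes of Sncg, Itih4, Prss23 and Atf3 had adjusted p of 0.0899, 0.26, 0.0634 and 0.777.

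Contractile genes had 15 of 30 lower and none higher (median log2 -0.24), and 6 of 30 lower without the 8 cells (median -0.14). Myh11, the smooth muscle myosin heavy chain, had 6096 and 5544 CPM in the class, against 7502 and 7324 in the 0 class and 5349 and 5585 in WT. Its log2 change was -0.32 (SE 0.05, adjusted p = 8.43e-09) and -0.21 without the 8 cells (adjusted p = 0.0306). Acta2, smooth muscle actin, had 22245 and 19106 CPM against 25926 and 24447 (log2 -0.25), and -0.15 without the 8 cells, where its adjusted p was 0.149. Per cell, the contractile list had a median of 99853 CPM in KO 1 and 91424 in KO 2, against 100536 and 95618 in the 0 class. With DESeq2 the adjusted p of Myh11 was 0.21.

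Marker lists of endothelial cells and fibroblasts rose in most of their tested members, and other lists did not. Endothelial markers had 10 of 11 tested members higher and 1, Fabp4, lower, and their summed level was 447 and 319 CPM against 182 and 197 in the 0 class and 187 and 191 in WT. Without the 8 cells the summed level was 158 and 337 CPM, and 3 of 7 tested members were higher and 1 lower. Kdr and Emcn had 0 UMIs in the class and did not enter the test. Cdh5, Tie1, Tek and Cldn5 had only 1 to 3 UMIs in each sum of the 0 class. They entered the test through the class sums, so the filter partly set the count of higher members. Pecam1, a junction protein of endothelium, had 113 and 60.1 CPM against 10.5 and 9.83 (log2 3.14, adjusted p = 1.7e-55), and 92.2% and 97.6% of its UMIs lay in 5 cells. Fibroblast markers had 8 of 12 higher and none lower, and 6 of 11 higher and 1 lower without the 8 cells. Their summed level was 1319 and 2360 CPM against 1034 and 1088, and 1261 and 1230 without the 8 cells. Some fibroblast list members were common in the 0 class too. Of its 4123 KO 1 cells, 4006 held Gsn and 3356 held Mfap5, so these genes do not tell fibroblasts apart here. Pericyte markers had 1 of 6 higher, Rgs5, a regulator of G-protein signalling, with 137 and 665 CPM against 112 and 257. Cardiomyocyte markers had none of 7 higher and 1 lower (median log2 -1.43). Their summed level was 801 CPM against 573 in KO 1 and 299 against 470 in KO 2, so the libraries went opposite ways. The lower member was Actc1, cardiac actin, with 16.8 CPM in KO 1 and 0 in KO 2, against 31.2 and 27.6 (log2 -1.50, adjusted p = 1.54e-05), or 19 and 0 UMIs. Macrophage markers had 1 of 3 higher, Lyz2, and none without the 8 cells. Lyz2 had 49 UMIs in KO 1, all in 1 cell, and 1 UMI in KO 2, against 4 and 1 in the 0 class. The 8 cells were chosen by these marker lists, so the loss of marker calls without them follows in part from that choice. Schwann cell, mesothelial and adipocyte markers, with 3, 1 and 1 tested, had no call by edgeR or DESeq2 and 2, 1 and 1 members at an unadjusted p under 0.05. Lymphocyte and erythroid markers had no tested member.

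Interferon-stimulated genes had 4 of 25 higher (median log2 0.30), and none higher and 1 lower of 24 without the 8 cells. Modulated smooth muscle genes had 7 of 14 higher and 2 lower (median 0.56), and 3 and 1 without the 8 cells, among them Mmp3, a matrix metalloprotease, which had 69.0 CPM in KO 1 and 2.93 in KO 2, against 7.38 and 6.58. Inflammatory genes had 2 of 7 higher (median 0.68), and 1 without the 8 cells, and p53 targets 1 of 13 (0.09), with and without them. Cell cycle genes had 2 of 12 higher (median 0.38), 1 without the 8 cells, and none of 10 (median -0.42) without cells with defining markers of another type. Their summed level was 272 CPM against 91.5 in KO 1, with 76.2% of the UMIs in 5 cells, and 90.3 against 90.9 in KO 2. Stmn1, a microtubule regulator, had 52.2 CPM against 6.17 in KO 1 and 2.93 against 5.35 in KO 2. Basement membrane genes had 2 of 17 higher and 1 lower (median -0.04), and glycolysis genes 1 of 14 lower (-0.14). Over all genes tested 1.91% were higher and 0.811% lower. A call of 1 or 2 members describes those genes and not their list. Endoplasmic reticulum stress genes (17 tested), nuclear oxidative phosphorylation genes (20) and regional transcription factors (13) had no member past the threshold of edgeR or DESeq2, with 3, 5 and 5 at an unadjusted p under 0.05. Several lists share members, such as Dcn, Lum and Eln.

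Against all WT cells, 351 of 13074 genes were higher in the tdTomato-positive class (2.68%) and 356 lower (2.72%). Without further scaling the split was 387 and 207 (65.2% higher, against 49.6%). The 0 class against the same WT libraries had 1318 of 14407 higher (9.15%) and 1642 lower (11.4%). Both comparisons share the WT libraries, and the sums of the 0 class are deeper. Without the 8 cells the class had 211 higher and 316 lower. Leaving out KO 1 gave 169 and 152, leaving out WT 1 gave 159 and 190, and leaving out WT 2 gave 198 and 233.

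Lists fared unequally against WT. Of the 12 steep losses, chosen on these libraries, 11 were lower than WT in the class and 12 in the 0 class, with median log2 values of -2.01 (also with AA465934 at its bound) and -3.49. The exception was Ccn5. Of the 12 steep gains, 11 and 12 were higher, with medians of 1.63 and 1.57, and the exception was Cidea. Eln stood at -0.88 (SE 0.11, adjusted p = 0.000925) in the class and -3.41 in the 0 class, and Mfap4 at -2.46 (adjusted p = 0.000773) and -4.30. Pmepa1 stood at -1.50 (adjusted p = 0.000705) and -3.04, and Col15a1 at -5.04 (adjusted p = 2.4e-07) and -6.00. Itih4 stood at 1.92 (adjusted p = 3.9e-05) and 2.52. Of 19 elastic fibre genes, 4 were lower than WT in the class and 13 in the 0 class, and 3 and 1 were higher. Of the collagens, 7 of 13 were lower than WT in the 0 class, and of 12 tested in the class none was lower and 1 was higher. The class sums include the 13 cells above the median WT cell and are shallower, so fewer calls do not show WT levels. Per cell, the median of collagen and elastic fibre transcripts in the class was 45.0% of WT. Col3a1 stood at -0.41 (adjusted p = 0.424) in the class, with -1.05 from KO 1 alone and 0.056 from KO 2 alone, and at -1.66 in the 0 class. The difference between these 2 sets of values is the test of the class against the 0 class given above.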

How the data were processed

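The authors deposited raw UMI counts for 4 libraries. Per the file headers, Cell Ranger 5.0.1 wrote them. The submitters' processing notes name mm10. All other steps were done here. Cells were classed by tdTomato UMIs, and counts were summed per library and class, leaving out eGFP and tdTomato. The 4 KO sums were fitted with edgeR 4.0.16 (R 4.3.3; quasi-likelihood test, TMM, default filter, library as block, 1 residual degree of freedom), and 2 KO against 2 WT sums without a block. P-values were adjusted by the Benjamini-Hochberg method over all genes tested, with a threshold of 0.05. CPM values share 1 TMM scale (factors 0.966 to 1.06). The biological coefficient of variation was 7.44% for the KO classes.

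With 0 and 1 such cells in WT, the planned fit of 8 sums, the contrast within WT and its difference from KO were not run. On simulated counts the tests recovered 68.5% of 200 genes changed 3-fold in the class contrast, with 5 false calls. Against WT they recovered 77.5% in the class and 98.0% in the 0 class. In the real class sums, the 5 highest cells supplied a median of 81.6% of the UMIs of the 257 higher genes in KO 1. In KO 2 the median was 89.2%. Whether the recovery and the false calls hold for UMIs concentrated in so few cells was not tested.

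Members and lists were chosen with earlier results of these data known. Named genes were Tgfbr1, Tgfbr2 and Myh11, the steep KO losses and gains, the 12 largest rises and falls (mean of 20 CPM or more, same direction in both libraries), and, from every list, the 3 genes lowest in p; Prss23, Lox, Postn, Smad6, Mmp3 and other list members were named after their values were seen. Cells were thinned with numpy 2.4.6 to 5000 UMIs, which left out 1 cell of the class. Scrublet scores came from scanpy 1.11.5. Positions are from GENCODE M21. Doublets were kept.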

Additional observations from a re-analysis of the deposited data

Results flagged for a closer look

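KO cells with 1 or 2 tdTomato UMIs belonged to neither class compared, although those with 2 entered the alternative limit of 2 UMIs. They were 1.11% of the kept cells of KO 1 (47 cells) and 0.568% of KO 2 (20 cells), against 1 cell each in WT 1 and WT 2. In matrix transcripts, 3 of 45 thinned cells of KO 1 (6.67%, exact binomial 95% interval 1.40 to 18.3%) and 5 of 20 of KO 2 (25%, 8.66 to 49.1%) were above the median WT cell, and 1 KO 1 cell had more markers of another cell type. Their median eGFP count was 90 and 79 UMIs, between the 59.5 of the tdTomato-positive class and the 107 of the 0 class.

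Cells with 3 or more tdTomato UMIs and no eGFP UMI were also outside the comparisons: KO 1 held 1 and KO 2 held 2, and the WT libraries held 0.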

How the results depend on the processing

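P-values rest on 2 libraries per genotype, and the summed class holds 72 and 38 cells, so single cells set many of its levels. For the class against the 0 class, counts of higher and lower genes stayed within 1.5 times of 257 and 109 with 2 or 5 tdTomato UMIs as the limit, with Scrublet scores, shared barcodes or 5000 UMIs treated otherwise, and without an expression filter. Dropping the eGFP rule changed the 0 class alone, to 4132 and 3462 cells, so it tested little. They were 47 and 24 without cells with defining markers of another type, 88 and 38 without cells with more of them (chosen after seeing the data), 106 and 71 after thinning and 16 and 6 after both (both chosen after seeing the data), 101 and 2 with no replicate block, 131 and 6 with DESeq2, and 78 and 33 at a mean of 20 CPM. Lower genes numbered 72 with depth matching and 62 without scaling. Leaving out a KO library gave 112 to 174 higher and 2 to 21 lower, where the lone library is assumed to vary like WT.

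Against WT, the class had 791 and 710 without a filter, 134 and 217 at 20 CPM, 207 lower without scaling, 211 higher without cells of other markers, and 159 to 386 higher and 152 to 347 lower without 1 library. The 0 class had 620 and 913 at 20 CPM, and 756 to 1068 and 1022 to 1244 without 1 library. The replicate block, which pairs equal numbers, gave 405 and 440 for the class and 1738 and 2039 for the 0 class. Same-numbered libraries shared deviations with a correlation of 0.07 and -0.02, so the samples share only a number. WT cells with 3 or more tdTomato UMIs could not replace WT. Matrix transcripts per cell stayed higher in the class by 536 CPM without thinning, 550 at 10000 UMIs and 400 to 900 for 1 library.

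Of 1506 refitted log2 changes of 93 gene results, 24 turned sign. Tgfbr1 went to 0.0040 with 5 tdTomato UMIs, 0.27 after thinning, 0.30 after thinning and removal and -0.32 to 0.17 without 1 KO library. Tgfbr2 went to -0.078 with 2 tdTomato UMIs, -0.19 with 5, -0.037 with depth matching, -0.25 without defining markers, -0.29 without cells of other markers, -0.090 after thinning, -0.27 after both and -0.14 to 0.24 without 1 KO library. Without defining markers, Pecam1 went to -0.19, H2-K1 to -0.10, Vcam1 to -0.96, Klf2 to -0.24, Stmn1 to -0.43 and Vwf to -0.13. H2-K1 went to -0.039 without cells of other markers and Vcam1 to -0.95 after thinning and removal. Without 1 KO library Vcam1 ranged from -1.02 to 1.17, Stmn1 from -0.85 to 3.10, Birc5 from -6.44 to 4.69 and Col3a1 against WT from -1.05 to 0.056. Another 339 lost the threshold and 7 gained it; the cause was not tested.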
